A study of Drosophila melanogaster with 6 samples.

Results

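The genes described here encode the phototransduction cascade of the fly eye, from the phospholipase C that light-activated rhodopsin switches on to the channels and the proteins that end the response. They are norpA, trp, trpl, inaC, inaD, Arr1, Arr2, rdgA, rdgB and ninaC, taken by gene symbol and not by their signals. Of these 10 genes, 9 had a probe set (a group of short probes that reads 1 transcript region) named here, with 13 probe sets in all, and no probe set was named for ninaC, a myosin III with a kinase domain. The array annotation named 10 of the 13. The 3 probe sets of norpA carry that name only in the study's list of LARK target RNAs, and the annotation used here names no gene for them. All 13 were above a signal of 40 on at least 1 array and were among the 9432 of 13966 probe sets tested.

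In fly photoreceptors, light-activated rhodopsin works through a Gq protein on the phospholipase C NORPA, which splits the membrane lipid PIP2. Cation channels of the TRP family then open and the cell depolarizes. The scaffold protein INAD holds the phospholipase, the TRP channel and an eye protein kinase C together, arrestins bind activated rhodopsin, and a lipid cycle rebuilds PIP2.

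RNA came from whole adult heads of both sexes, frozen at ZT6 (6 h after lights-on, days of 12 h light and 12 h dark at 25°C), and the age of the flies is not given in the sources used here. For LARK overexpression, elav-gal4 mothers were crossed to uas-lark fathers, which gave elav-gal4; uas-lark/+ sons and elav-gal4/+; uas-lark/+ daughters. For the control, the mothers were the same and the fathers were w1118, so the sons carried elav-gal4 and the daughters elav-gal4/+. The driver elav-gal4 is active in neurons, photoreceptors included, while head RNA also holds glia, fat body, muscle and cuticle, so fewer cells of a type and less RNA per cell cannot be told apart. By the series' description, each genotype gave 1 RNA sample that was labeled and hybridized 3 times, and on that description p-values leave out how flies vary. LARK overexpression array 1 differed from arrays 2 and 3 by more than the control arrays differed from each other, so a single RNA sample is taken from the description alone, and the spread may hold more than labeling.

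The values are linear signal intensities, deposited with array means scaled to 150, 85 and 100 for replicate numbers 1, 2 and 3. They were rescaled here to a trimmed mean of 100 on every array, which leaves the genotype difference as deposited. Genotypes were compared on the log2 scale with limma, and rose, fell and called are used for an adjusted p under 0.05 over all tested probe sets. Array correlations over the tested probe sets ran from 0.838 to 0.946, and array 1 of LARK overexpression was nearer to control array 1 (0.912) than to its own arrays 2 and 3 (0.877 and 0.892), while control arrays correlated at 0.921 to 0.931. With LARK overexpression the lark probe set itself read 170.2 ± 5.8 and in the control 175 ± 23.0 (SD over 3 arrays each), and the files do not say whether it reads the transgene.

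None of the 13 cascade probe sets passed the test, in a comparison that called 0.117% of all probe sets higher and 2.15% lower with LARK overexpression. An unadjusted p under 0.05 was found for 1 of the 13, against 1834 of all 9432 (limma). The median log2 difference of the 13 was -0.26, against -0.07 over all tested probe sets, with 10 of the 13 below 0 (5304 of all 9432). A norpA probe set stood highest, 1.57-fold above the control, and the other genes lay between 0.716-fold and 1.03-fold of it. The plot of signals by array shows the genotypes overlapping in 12 of the 13 probe sets.

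**Figure D1:**
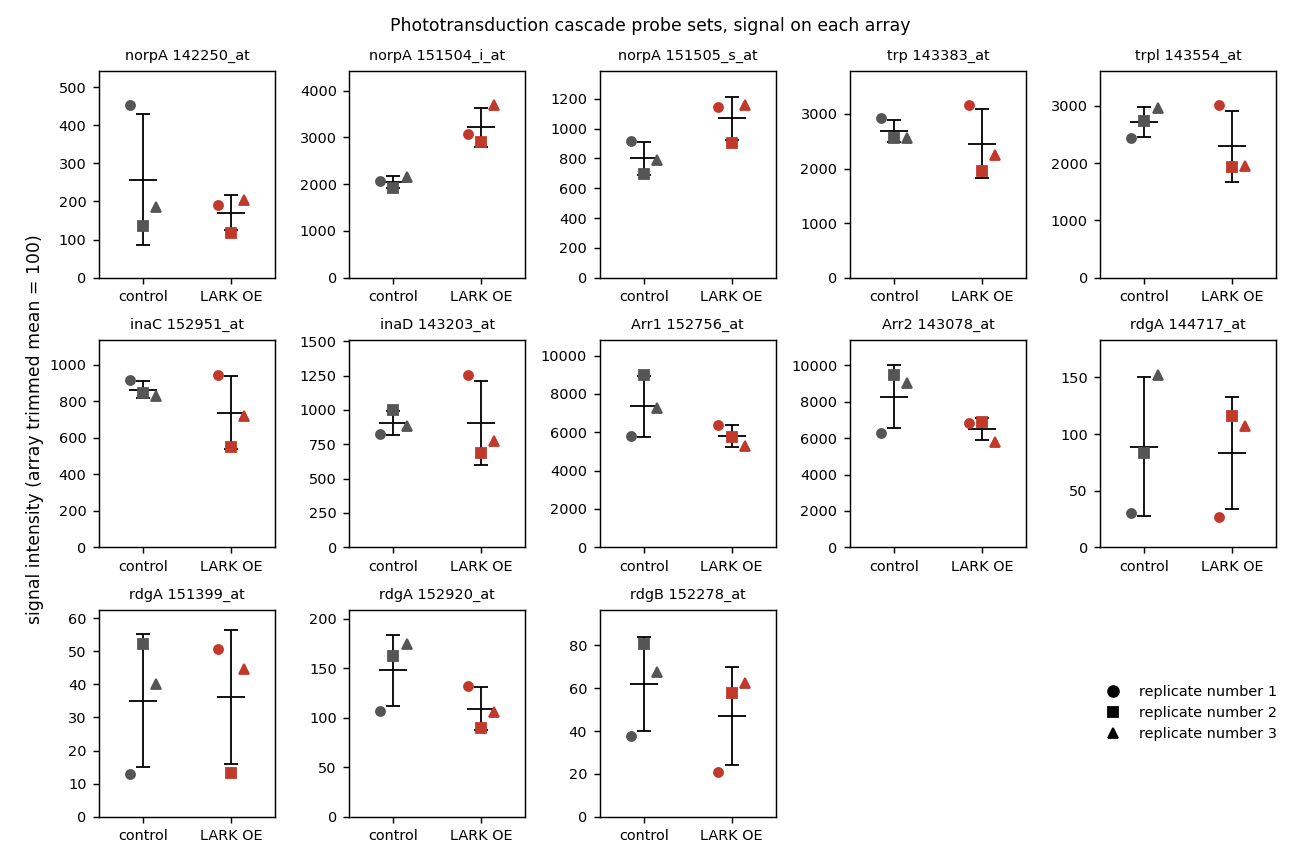
Signal intensity of each cascade probe set on each array (y axis, linear, array trimmed mean 100; LARK OE is LARK overexpression), with points shaped by replicate number and the bar and whiskers giving the mean and SD of 3 arrays. In norpA 151504_i_at the LARK overexpression arrays lie at 2898 to 3690.2 and the control arrays at 1914 to 2158, and in every other panel the genotypes overlap.

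The phospholipase C gene norpA is required for the light response, and its 3 probe sets differed from each other. Probe set 151504_i_at read 3075, 2898 and 3690.2 on LARK overexpression arrays 1, 2 and 3, and 2061, 1914 and 2158 on the control arrays. Every LARK overexpression array was above every control array. This was the only one of the 13 probe sets whose genotypes did not overlap (8.28% of all probe sets did not overlap with LARK overexpression higher, and 16.4% with it lower). On the deposited scale, where replicate numbers differ in scaling, it overlapped as well. The log2 difference of norpA 151504_i_at was 0.65 (standard error, SE, 0.19, 95% confidence interval 0.21 to 1.09, adjusted p = 0.13 from limma), and 0.58, 0.60 and 0.77 within replicate numbers 1, 2 and 3. It passed when the variance prior followed the intensity and was robust (adjusted p = 0.0494 from limma, where 0.615% of all probe sets were called higher) and when a replicate block was added to that prior (adjusted p = 0.0464, 1.51% called higher). No other cascade probe set passed under either setting.

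Probe set 151505_s_at of norpA read 1147, 903 and 1157 with LARK overexpression and 914, 696.5 and 788 in the control. It was higher within each replicate number, although LARK overexpression array 2 lay below control array 1. The log2 difference was 0.42 (SE 0.21, adjusted p = 0.329 from limma). Probe set 142250_at of norpA went the other way, at 190.0, 119 and 204 with LARK overexpression and 453, 135.0 and 185 in the control. Control array 1 set its difference of -0.43 (SE 0.47, adjusted p = 0.681 from limma), which was 0.07 without that array.

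RefSeq lists 6 transcripts of norpA, and where its 3 probe sets lie along them is not known here. By the naming of the array, a probe set ending in s_at can match more than 1 transcript. The ratio of norpA 142250_at to 151504_i_at within an array, which does not depend on the scaling of that array, was -4.02, -4.61 and -4.18 on the log2 scale with LARK overexpression and -2.19, -3.83 and -3.54 in the control. All LARK overexpression arrays were lower, by a mean of -1.08, or -0.58 without control replicate 1 (exact permutation test, 2-sided p = 0.1, the smallest p that 3 against 3 arrays allow, and 0.55 adjusted over the 11 ratios computed). The ratio of 142250_at to 151505_s_at was also lower on all LARK overexpression arrays, by -0.85, or -0.45 without control replicate 1 (exact p = 0.1, adjusted 0.55). Between 151504_i_at and 151505_s_at the genotypes overlapped and differed by 0.23 (exact p = 0.3, adjusted 0.786).

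The ratio of 3′ to 5′ signal in array control transcripts, a sign of RNA integrity and labeling length, also parted the genotypes. For eIF-4a it was 6.05 to 6.52 with LARK overexpression and 2.81 to 3.02 in the control. The actin control gave 5.51 to 6.21 and 1.89 to 3.41, while GAPDH overlapped at 3.23 to 5.06 and 2.82 to 4.04. Its part in the norpA differences, or in any other difference given here, was not tested.

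**Figure D2:**
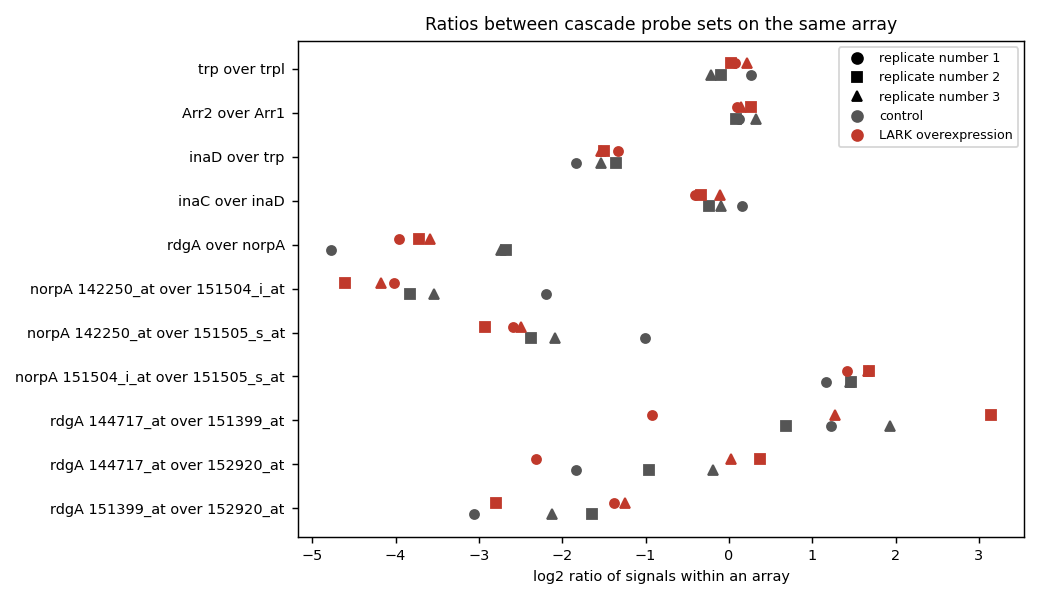
The log2 ratio of pairs of cascade probe sets on the same array (x axis), for LARK overexpression (red) and control (grey) arrays, with the point shape giving the replicate number. The genotypes are apart only in the pairs of norpA 142250_at with the other norpA probe sets, by -1.08 and -0.85, while Arr2 over Arr1 lies at 0.08 to 0.32 on all 6 arrays.

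The light-gated channels are TRP, which carries most of the light-activated calcium current, and its relative TRPL. The trp probe set read 3161, 1949.5 and 2256 on LARK overexpression arrays 1, 2 and 3 and 2922, 2567 and 2567 in the control. LARK overexpression array 1 was the highest of the 6 and arrays 2 and 3 were the lowest. For trpl the signals were 3009.7, 1928 and 1939.5 with LARK overexpression and 2440.0, 2728 and 2966 in the control, with the same array highest and the same pair lowest. The log2 differences were -0.16 for trp (SE 0.23, adjusted p = 0.772 from limma) and -0.27 for trpl (SE 0.24, adjusted p = 0.596 from limma). Their 95% confidence intervals, -0.71 to 0.40 and -0.84 to 0.30, include falls of over 1.5 times. The trp to trpl ratio differed by 0.11 between genotypes, less than the SD of 0.24 over the control arrays (exact permutation test, p = 0.5, adjusted 0.786).

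The inaD gene encodes the scaffold, and inaC the eye protein kinase C that it binds and that helps to end the response. The inaD signals were 1257, 687 and 776 with LARK overexpression and 824, 1000 and 886 in the control. LARK overexpression array 1 was again the highest and arrays 2 and 3 the lowest, and the log2 difference of -0.04 (SE 0.27, adjusted p = 0.953 from limma) averages 0.61, -0.54 and -0.19 within replicate numbers 1, 2 and 3. For inaC the signals were 946.5, 547 and 719 against 919, 844.5 and 830.5, which differed by -0.26 on the log2 scale (SE 0.24, adjusted p = 0.614 from limma). The inaC to inaD ratio differed by -0.22 between genotypes and the inaD to trp ratio by 0.12, both with overlap (exact p = 0.2 and 0.5, adjusted 0.733 and 0.786).

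Arr1 and Arr2 encode the arrestins of the eye, which bind light-activated rhodopsin and stop its signaling. Arr1 read 6379, 5763 and 5254.5 with LARK overexpression and 5817, 9001 and 7272 in the control. Arr2 read 6855, 6882 and 5804 with LARK overexpression and 6309.5, 9493.5 and 9056 in the control. Within replicate numbers 2 and 3 both were lower with LARK overexpression, while control array 1 was within the range of the LARK overexpression arrays. Their log2 differences were alike at -0.33 each (SEs 0.22 and 0.23, adjusted p = 0.482 and 0.483 from limma, 95% confidence intervals -0.86 to 0.21 and -0.87 to 0.21). The ratio of Arr2 to Arr1 averaged 0.17 on the log2 scale in either genotype, with an SD of 0.08 over the LARK overexpression arrays and 0.13 over the control arrays (n = 3 each).

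The lipid cycle is represented by rdgA, a diacylglycerol kinase, and rdgB, a transfer protein for phosphatidylinositol and phosphatidic acid. Mutants of both lose photoreceptors. The 3 probe sets of rdgA read at most 175, and RefSeq lists 11 transcripts for the gene. Probe set 152920_at of rdgA read 132, 90.1 and 106 with LARK overexpression and 107, 162 and 174 in the control, and differed by -0.42 on the log2 scale (SE 0.27, adjusted p = 0.443 from limma). The other probe sets of rdgA, 144717_at and 151399_at, read 26.7 to 152 and 12.9 to 52.1 over the 6 arrays, the genotypes overlapping, and had log2 differences of -0.07 and 0.04 with SEs of 0.77 and 0.70. For rdgB the signals were 20.9, 57.8 and 62.4 with LARK overexpression and 37.8, 80.6 and 67.4 in the control. It was lower within each replicate number, by -0.86, -0.48 and -0.11, with a log2 difference of -0.48 (SE 0.50, adjusted p = 0.66 from limma). The intervals of these 4 probe sets are wide, from -1.06 to 0.21 for rdgA 152920_at up to -1.89 to 1.76 for rdgA 144717_at, so their differences are poorly measured.

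A pattern by replicate number ran through 7 of the 13 probe sets, which were higher with LARK overexpression within number 1 and lower within numbers 2 and 3. They are those of trp, trpl, inaC, inaD, Arr1 and Arr2 and 152920_at of rdgA, and none of the norpA probe sets. The pattern was also seen in 4 of 7 tested probe sets of fat body markers, those of Lsp2, Yp1, Yp2 and Yp3. Of all tested probe sets 15.6% had this pattern. Of the 397 with a mean signal above 1000 it was 41.1%, and with a mean signal of 100 to 1000 it was 527 of 3300. Of the 7 cascade probe sets, inaC, inaD and rdgA 152920_at lie in that lower range, at mean signals of 801.1, 904.9 and 128.6. The median log2 difference of the 13 probe sets was 0.13, -0.48 and -0.19 within numbers 1, 2 and 3. It was 0.21, -0.13 and -0.16 over the 397, and 0.06, -0.02 and 0.03 over the 3300. Whether signal level accounts for the pattern in the cascade was not tested. On the arrays of numbers 2 and 3 alone, a choice made after the values were seen, 8 of the 13 were lower on both LARK overexpression arrays than on both control arrays, as were 34.0% of all probe sets. None of the 13 passed limma there, where the lowest adjusted p was 0.131 for rdgA 152920_at.

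**Figure D3:**
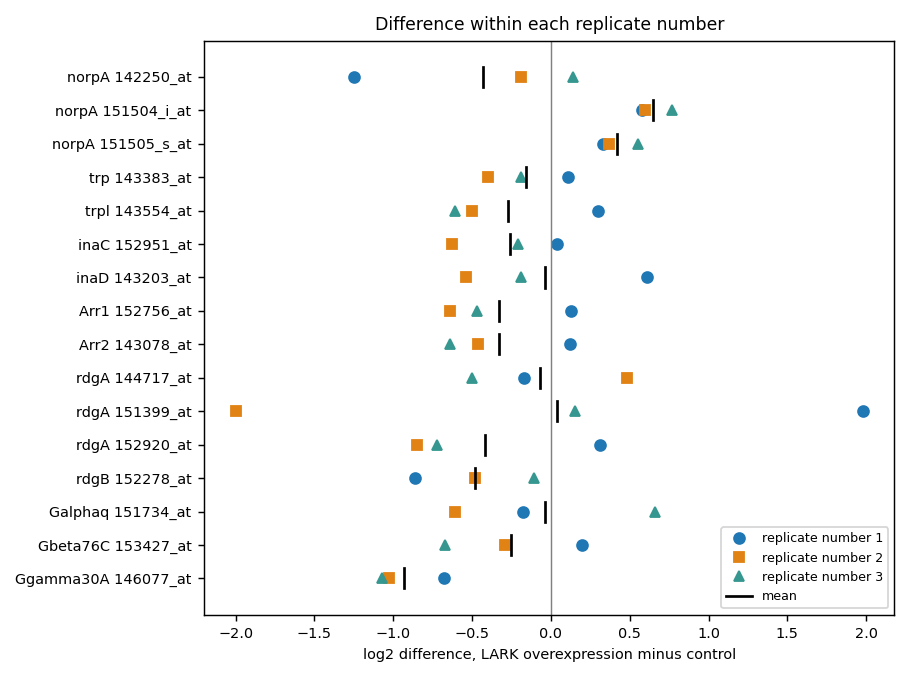
The log2 difference between LARK overexpression and control (x axis) within each replicate number, for the cascade probe sets and the G protein subunits, with a black bar at the mean. For trp, trpl, inaC, inaD, Arr1, Arr2 and Gbeta76C number 1 lies above 0 and numbers 2 and 3 below it, while norpA 151504_i_at and 151505_s_at lie above 0 and Ggamma30A below 0 at every number.

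Markers of other cell types differed between the LARK overexpression arrays along the same line. Of 7 gut genes 6 were measured, and their summed signal was 379 on LARK overexpression array 1 and 2636 and 2260 on arrays 2 and 3, against 241 to 266 in the control. For muscle, 7 of 10 genes were measured, with sums of 7579, 14522 and 13061 against 6256 to 8558. The muscle split lay mainly in Act88F (60.7 on array 1, then 3516 and 3293), fln (13.7, then 1089 and 1242) and TpnC4 (0.8, then 425 and 570). It was smaller in up 142555_at (503, then 936 and 841). Mlc2 read 6035, 7604 and 5902 on LARK overexpression arrays 1, 2 and 3 and Tm2 501, 508 and 536, without that split. Neuron markers, 11 of 14 measured, summed to 2920 to 3293 with LARK overexpression and 3953 to 4500.0 in the control, without such a split. The largest part of these sums was nrv3 (means 1813 and 1971). Of the 13 tested neuron probe sets 4 fell (nSyb, cac, VGlut and Gad1), against 2.15% of all, and this cac probe set read 48.3 or less. A replicate block ended these 4 calls (adjusted p = 0.0783 to 0.0981 from limma), as it did all calls. With the trend and robust prior cac did not pass either (adjusted p = 0.0569 from limma), while nSyb, VGlut and Gad1 did (0.0016 to 0.0093). These 3 also passed with the block added to that prior (adjusted p = 0.00301 to 0.0102 from limma), and cac did not (0.0744). Other neuron markers did not pass in the main fit, with log2 differences of -1.32 for Appl, -0.13 for elav, -0.12 for nrv3, 0.20 for Csp and 0.37 for para. The tested brp probe sets stood at -1.10 and -2.48, with signals of at most 46.7, and those of futsch at -1.20 and -0.05. Appl passed with the trend and robust prior, without and with the block (adjusted p = 0.0251 and 0.0108 from limma). Those settings called 4 of the 13 lower, against 3.39% and 4.55% of all. In all, 11 of the 13 were below 0 and 2 above, with a median of -1.20. Fat body markers, 7 of 8 measured, summed to 27035 to 33435 and 23056 to 43550, with most of the signal in the yolk protein genes Yp1, Yp2 and Yp3. Of the other fat body markers, Cyp4g1, Fbp1 and Obp99b did part the LARK overexpression arrays. Cyp4g1 read 7.7 on array 1 and 1267 and 1220.1 on arrays 2 and 3. Fbp1 read 54.0 and then 642 and 653, and Obp99b 78.1 and then 909.6 and 709. Every control array was at 73.0 or less in all 3. Lsp2 did not rise on arrays 2 and 3, at 1123, 588 and 521 with LARK overexpression and 621, 845.5 and 536.5 in the control. Glia markers, 7 of 8 measured, summed to 2641 to 3267 and 2305 to 3128, and no marker of these 5 lists read 0 on any array. In the gut, muscle, fat body and glia lists 0 genes passed limma. An unadjusted p under 0.05 was found for 6 of 6, 1 of 9, 3 of 7 and 2 of 7 tested probe sets, against 1834 of all 9432 (limma). The summed signal of the 13 cascade probe sets was 26251, 21953 and 22120 with LARK overexpression and 22847, 28758 and 27143 in the control. The part of the other cell types in the cascade values was not tested.

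**Figure D4:**
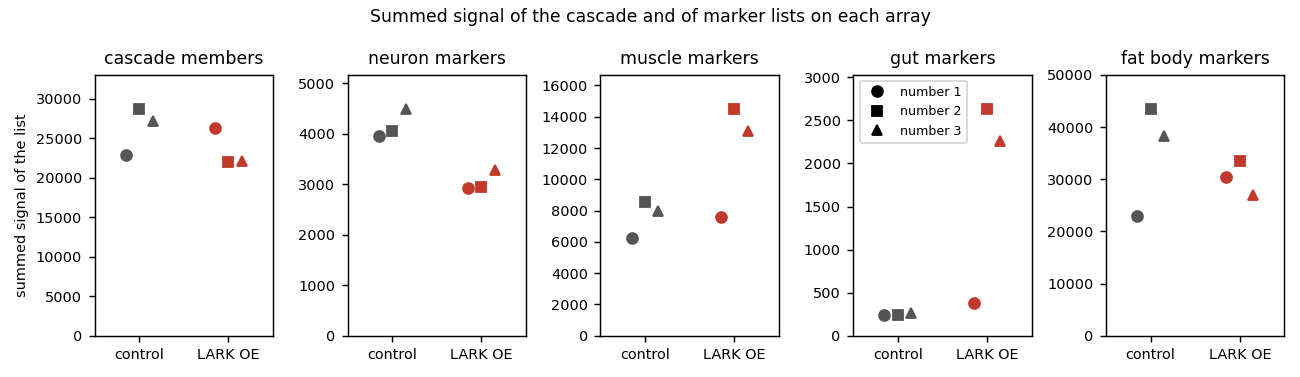
Summed signal of all probe sets of a list on each array (y axis, linear, array trimmed mean 100), for the cascade and for neuron, muscle, gut and fat body markers, with the point shape giving the replicate number. Gut markers stand at 2636 and 2260 on LARK overexpression arrays 2 and 3 and at 379 on array 1, and on those arrays the cascade sums to 21953 and 22120 and to 26251.

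Upstream of the phospholipase, the visual Gq protein has subunits encoded by Galphaq, Gbeta76C and Ggamma30A. None of the 3 passed the test. Ggamma30A read 588, 436 and 477 with LARK overexpression and 943, 890 and 999 in the control. Every LARK overexpression array was below every control array, as in 16.4% of all probe sets. Its log2 difference was -0.93 (SE 0.19, adjusted p = 0.0666 from limma), and it passed with the intensity trend and robust prior (adjusted p = 0.0174). Gbeta76C had a log2 difference of -0.25 (SE 0.23, adjusted p = 0.603 from limma) and Galphaq -0.04 (SE 0.33, adjusted p = 0.959 from limma).

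Of 24 genes listed here as partners of the cascade, some of them relatives of its enzymes, 16 were tested. Of these 1 fell, 0 rose and 15 did not pass. The gene that fell was rdgC, a calcium-dependent phosphatase that removes phosphate from rhodopsin. The rdgC signals were 65.5, 37.8 and 68.7 with LARK overexpression and 199, 162 and 223 in the control. The ratio of the genotypes was 0.287-fold, and rdgC fell by 1.80 on the log2 scale (SE 0.29, adjusted p = 0.0356 from limma), and the difference was -1.60, -2.10 and -1.70 within replicate numbers 1, 2 and 3. With a replicate block the adjusted p for rdgC was 0.0783 from limma, which ends the call. So did leaving out any array but LARK overexpression array 1, with an adjusted p of 0.0626 and 0.0901 without LARK overexpression replicates 2 and 3 and 0.112, 0.0945 and 0.15 without control replicates 1, 2 and 3. With the block, or without any 1 of the control arrays, 0 of all 9432 probe sets were called. Without LARK overexpression replicate 3, 0 were called higher and 3 lower. In these fits the loss of the call is thus not particular to rdgC.

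The 24 probe sets of the tested partners had a median log2 difference of -0.36, and 19 of them were below 0 (5304 of all 9432). All partners other than rdgC are named after their values were seen. The receptor kinase gene Gprk2 had a log2 difference of -1.12 (SE 0.22, adjusted p = 0.0585 from limma), the protein kinase C gene Pkc53E -0.98 (SE 0.22, adjusted p = 0.0766) and Plc21C, a second phospholipase C gene, -0.97 (SE 0.24, adjusted p = 0.0988). For each of these the genotypes did not overlap, as in 10 of the 24 probe sets, all of them lower with LARK overexpression (16.4% over all probe sets). All 3 passed with the trend and robust prior (adjusted p = 0.0212, 0.027 and 0.0397), which called 4 of the 24 lower with rdgC among them, against 3.39% of all probe sets. With the replicate block added to that prior 6 of the 24 were lower (4.55% of all), Pis and PIP5K59B joining them. With the block alone 0 were, as over all tested probe sets. The phosphatidylinositol synthase gene Pis had a log2 difference of -0.69 (SE 0.20, adjusted p = 0.133 from limma), and calmodulin (Cam), a calcium sensor of the cascade named here from the target list, had -0.56 (SE 0.18, adjusted p = 0.175). The 3 probe sets of PIP5K59B, a phosphatidylinositol phosphate kinase gene, differed by -0.88, -1.09 and -0.36 on the log2 scale, and the 5 of inaE, a diacylglycerol lipase gene, by -0.35 to 0.68. Of the partners with high signals, rtp (retinophilin) and CdsA, a CDP-diacylglycerol synthase gene, differed by -0.30 (SE 0.19) and -0.38 (SE 0.27). The sodium-calcium exchanger gene Calx stood at 0.37 (SE 0.26, adjusted p = 0.491).

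**Figure D5:**
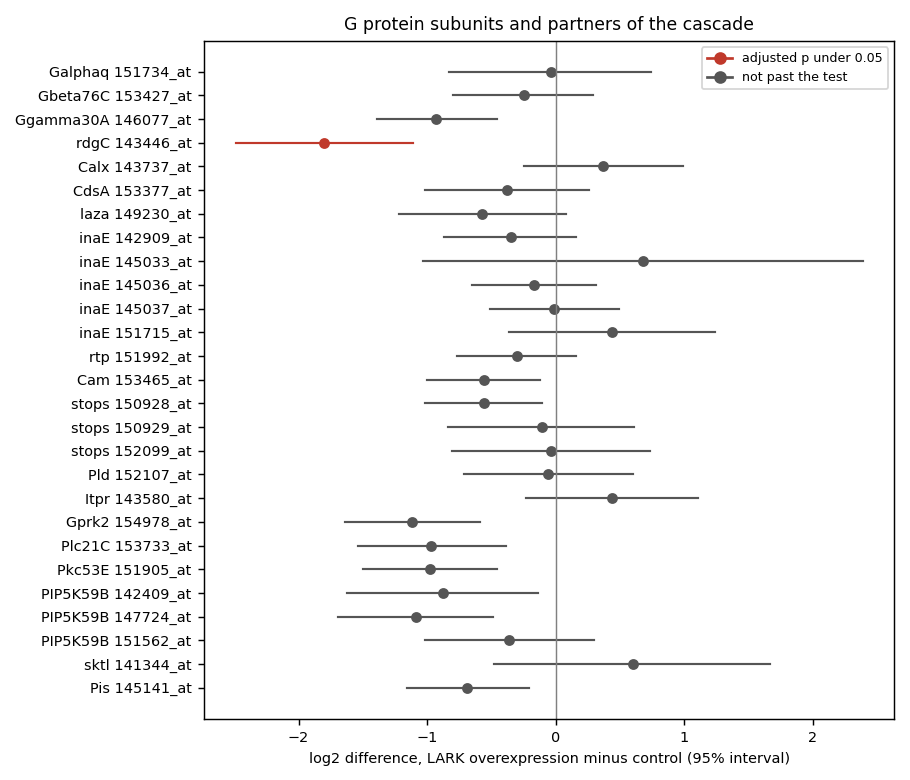
The log2 difference between LARK overexpression and control (x axis) with its 95% confidence interval, for probe sets of the G protein subunits and the partners of the cascade, in red where the adjusted p was under 0.05. Only rdgC, at -1.80, is red, and Ggamma30A, Gprk2, Plc21C and Pkc53E lie between -0.93 and -1.12 without passing in this fit.

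Other genes of the photoreceptor did not pass either. The adhesion protein gene chp (chaoptin), a marker of photoreceptors, had mean signals of 1649 with LARK overexpression and 1370.2 in the control and differed by 0.27 on the log2 scale (SE 0.20, adjusted p = 0.518 from limma), and boss, which encodes a ligand between developing photoreceptors, differed by 0.05 (SE 0.20). All 12 genes of photoreceptor structure and eye regulation were tested, with a median over 14 probe sets of -0.26. Of the 14, 1 was at an unadjusted p under 0.05, against 1834 of all 9432 (limma). No probe set was named here for ninaE, the major rhodopsin gene, and of 12 genes for rhodopsins and their maturation 4 were measured, among them santa-maria at 0.07 (SE 0.18) and ninaB at 0.10 (SE 0.24), which both act in making the chromophore. In the histamine cycle of the photoreceptor synapse, 5 of 6 genes were tested, and t (tan), which frees histamine, had a log2 difference of -0.80 (SE 0.22, adjusted p = 0.122 from limma). Its partner enzyme gene e (ebony), also used in cuticle, read 289, 1314 and 1258 with LARK overexpression and at most 155 in the control, differing by 2.54 on the log2 scale (SE 0.59, adjusted p = 0.0827 from limma).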

How the data were processed

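The authors deposited linear signal intensity values from 6 Affymetrix Drosophila genome arrays (1 color), made with MAS5 by the submitters' processing notes, with no version or settings given, whereas the paper's methods describe GCRMA. Per the file headers, same-numbered arrays share a hybridization day, so the numbers pair them. Correlations of deviations from genotype means were 0.094, 0.172 and 0.026 for same-numbered arrays and -0.212 to 0.102 for others. The settings recorded for wash, stain and scan were not used as measurements.

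Of 14010 probe sets, 44 were array controls. The annotation names 1 gene for 12443 of the remaining 13966, several for 327 and none for 1196. Each array was divided by its 2% trimmed mean and multiplied by 100, because the deposited scaling differs between replicate numbers and enters the spread of an unblocked fit. Probe sets above 40 (deposited signal) on at least 1 array were kept, as in the methods, and log2 values were fitted by genotype in limma 3.58.1 under R 4.3.3 (2-sided, Benjamini-Hochberg over 9432 probe sets). Ratios between probe sets were compared with exact permutation tests over arrays. Alternatives covered scaling, offset, floor, filter, variance prior, replicate block and left-out arrays. On simulated data with 9432 probe sets the fit called 12, 38 and 40 of 50 probe sets raised by 1, 2 and 3 on the log2 scale. It called 33 of 50 lowered by 2 and 12 of 9232 left unchanged. The simulated noise was drawn separately for each probe set and array, without deviations shared across an array, so these rates may not hold for the real arrays.

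The members and gene lists were chosen with earlier results of these data known. Named genes were all members, the G protein subunits, ninaE and chp, and from each other pathway or eye list up to 4 called genes, or the 2 of highest signal where none was called. Genes named beyond this rule were chosen after their values were seen. No sequences of probes, transcripts or proteins were used here. The number of arrays limits the precision.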

Additional observations from a re-analysis of the deposited data

Results flagged for a closer look

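Control transcripts of the array, which no comparison used, read differently in the genotypes. The 3′ to 5′ signal ratio averaged 6.27 ± 0.24 (SD, n = 3 arrays) for eIF-4a and 5.84 ± 0.35 (SD, n = 3 arrays) for actin with LARK overexpression, above control levels of 2.88 ± 0.12 and 2.42 ± 0.86 (SD, n = 3 arrays each).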

How the results depend on the processing

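Of the 13 cascade probe sets, 8 kept the direction of their difference under all alternatives run and 5 did not. Centering arrays on their median gave 0.08 for inaD and 0.06 for rdgA 144717_at, quantile normalization gave 0.03 for the latter, and numbers 2 and 3 alone, added after seeing the data, gave -0.92 for rdgA 151399_at. With 1 array left out, inaD ranged from -0.30 to 0.13, norpA 142250_at from -0.80 to 0.07, rdgA 144717_at from -0.70 to 0.62, rdgA 151399_at from -0.57 to 0.67 and rdgB from -0.80 to 0.03, and the ratios that turned were inaD over trp (-0.01 to 0.22) and those of rdgA 144717_at to 151399_at (-1.10 to 0.93) and to 152920_at (-0.15 to 1.19). The causes were not tested.

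Cascade probe sets called were 0 higher and 0 lower, also with any array left out, and 1 higher (norpA 151504_i_at) with the trend and robust prior, without or with a replicate block. Without control replicate 1, 2 or 3 the fit called 0 of all 9432 probe sets, so no cascade call could arise there. Those higher without overlap were 1, or 0 on the deposited scale, 2 with centered arrays or numbers 2 and 3 alone, and 1 to 2 with 1 array left out. Those lower without overlap were 0, or 2 after quantile normalization, 8 on numbers 2 and 3 alone and 0 to 6 with 1 array left out. The median ranged from -0.35 to -0.16 with 1 array left out.

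Over all probe sets, the 11 higher and 203 lower became 32 and 114 on the deposited scale, 11 and 117 with centered arrays, 18 and 115 with quantile normalization, 45 and 352 after adding 16, 38 and 208 with a floor at 40, 0 and 2 with no filter, 39 and 266 with a filter above 100, 44 and 162 with all arrays above 40, 58 and 320 with the trend and robust prior, 0 and 0 with a replicate block (1903 at an unadjusted p under 0.05), 142 and 429 with both, and 196 and 165 on numbers 2 and 3 alone. Leaving out 1 array gave 0 to 351 higher and 0 to 476 lower. The share lower was 94.9%, 78.1% on the deposited scale and 45.7% on numbers 2 and 3 alone. The rdgC difference ranged from -1.96 to -1.53 and was called in 6 of 17 alternatives, its adjusted p running from 0.00368 to 0.15 (0.0985 on the deposited scale). Since the replicate block alone called 0 of all probe sets, it could not show whether cascade calls depend on it.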
